A study of Mus musculus with 36 samples.

Results

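The comparison of *Tet1* KO with WT cells on days 1 and 2 of neurobasal differentiation covers the days before the primitive streak gene *T* was abundant in cells of either genotype. It holds every library labelled day 1 or day 2 in the time course of the series, which is 8 of 36 libraries, 2 KO and 2 WT on each day. Mouse ESCs were taken off feeders and serum and plated as a monolayer in N2B27 medium with the growth factor bFGF, in which they leave pluripotency and become anterior neural progenitor cells (antNPCs). The KO libraries came from the lines KO1 and KO15 and the WT libraries from the lines WT7 and WT34, all male lines from a cross of the B6 and 129S6 strains. The KO lines carry the *Tet1* allele labelled tm1Koh and the WT lines are littermate lines without it, and no compound besides the medium and bFGF was given to either genotype on these days. With 2 lines per genotype, genotype and line cannot be told apart, and the 4 libraries of a genotype are not 4 independent lines because each line gave a library on each day. Every p-value therefore measures the spread among these libraries only. The levels are those of bulk cultures, in which fewer cells of a type and less RNA per cell cannot be told apart.

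TET1 is a dioxygenase that oxidises 5-methylcytosine in DNA, and it binds DNA at CpG-rich promoters, where it can also act without catalysis. It is the main TET enzyme of ESCs and of the epiblast, the embryonic tissue that forms the germ layers. In this protocol ESCs pass through a formative, epiblast-like state on the first days, after which cells become neural or enter a primitive streak programme, marked by the T-box factors *Eomes* and *T*.

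Total counts of the 8 libraries ran from 12.3 M to 18.4 M (M, 1e6) around a median of 14.0 M, with 24202 to 25765 genes detected per library. The first principal component, with 52.1% of the variance, separated the days. WT7 on day 1 stood apart from the others. It gave 5.68% of its counts to mitochondrially encoded genes, beside 1.52% to 2.53% in the other libraries, and it lay alone at one end of the second component (14.8% of the variance). KO15 on day 2 stood apart in a set of 16 markers of primitive and visceral endoderm, the extraembryonic lineage beside the epiblast. Their summed level was 1647 CPM (counts scaled to 1e6 per library) against 611 to 760 CPM in the other KO libraries and 642 to 1120 CPM in WT. Of the 13 markers with enough counts to be tested, 0 passed the test between genotypes. Among 12 tested markers of feeder fibroblasts, 0 passed with the fold threshold. At an adjusted p under 0.05 alone 2 were higher, beside 1.33% of all tested genes (*Col5a1* at 0.89 and *Fbn1* at 0.55, log2). The largest difference in that list was the other way, *Acta2* at -2.05 (adjusted p = 0.0600), and 10 of the 12 were above 0. The summed level of all 13 listed feeder markers was 100 to 160 CPM in KO and 68.7 to 113 CPM in WT. The part of these cells in the results was not tested.

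*Tet1* itself was checked before any other gene. It lies on the minus strand of chromosome 10 (mm10, 62804570 to 62908996). On day 1 it stood at 49.7 CPM in KO1 and 46.9 CPM in KO15, against 866 CPM in WT7 and 817 CPM in WT34. On day 2 it stood at 66.3 and 69.2 CPM in the same KO lines and at 474 and 471 CPM in the WT lines. All 4 KO libraries were below all 4 WT libraries, and the KO libraries kept some *Tet1* reads. Over both days the level was 11-fold lower in KO (log2 fold change -3.46, SE 0.25, adjusted p = 0.000335). The log2 difference was -4.12 on day 1 and -2.80 on day 2, and the WT level was lower on day 2 than on day 1 while the KO level was not.

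Across 17252 tested genes, 124 passed an adjusted p under 0.05 together with an absolute log2 fold change over 1, which is 0.719% of the genes tested. Of these, 84 were higher in KO (0.487%) and 40 were lower (0.232%). By adjusted p alone, at any fold, 442 genes passed (2.56%), 230 higher (1.33%) and 212 lower (1.23%). The differences were mostly small, and 96 of the 124 genes had an absolute log2 fold change of at most 2. Among the 124 genes, 96 were annotated as protein coding, and 29 were pseudogenes or had the symbol of a predicted gene, classes that overlap. The KO and WT libraries of all 124 did not overlap on either day and stood on the same side on each day. Such separation was common, since 2922 genes (16.9% of those tested) were separated the same way on both days. Without WT7 on day 1 the test called 161 genes, among them 115 of the 124. The number was lower without each of the other libraries, at 106 without WT34 on day 1, 69 without KO1 on day 1, 66 without KO15 on day 1, 82 without KO1 on day 2, 72 without KO15 on day 2, 58 without WT7 on day 2 and 65 without WT34 on day 2, and 48 of the 124 genes passed with any single library of the 8 left out. With the counts of both days summed to 1 library per line, 79 genes passed, 67 of them among the 124.

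Fold changes are log2 values pooled over both days, unless a day is named. Among genes averaging at least 5 CPM in the higher genotype, without predicted genes and pseudogenes, the 12 largest rises were those of *Sptb*, *Kirrel*, *Pdgfa*, *Wdfy1*, *Tnfrsf1a*, *Camk2n1*, *Ttc9*, *Prox1*, *Arl14epl* and 3 genes of the Xlr family. *Prox1*, which encodes a homeodomain factor of the lymphatic endothelium and the lens, was the 1 developmental transcription factor among them. *Sptb* encodes beta-spectrin, a protein of the membrane skeleton. On day 1 its level was 74.5 CPM in KO1 and 73.5 CPM in KO15, against 28.8 CPM in WT7 and 26 CPM in WT34, and on day 2 it was 109 and 93.1 CPM in KO and 29.3 and 30.1 CPM in WT. All KO libraries lay well over all WT libraries, and the level was 3.03-fold higher in KO (log2 fold change 1.60, SE 0.09, adjusted p = 0.000111). *Kirrel*, an immunoglobulin-family adhesion gene, stood at 42.9 and 37.6 CPM in KO1 and KO15 and at 10.9 and 11.7 CPM in WT7 and WT34 on day 1. On day 2 its levels in the same order were 41.6, 46.1, 10.4 and 15.0 CPM. The gap was of like size on each day, and the gene was 3.51-fold higher in KO overall (log2 fold change 1.81, SE 0.12, adjusted p = 0.00023).

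*Pdgfa*, the gene of a growth factor secreted by the epiblast, was lower on day 2 than on day 1 in both genotypes and higher in KO on each day. It stood at 42.4 and 41.2 CPM in KO against 17.7 and 16.4 CPM in WT on day 1, and at 17.1 and 16.4 CPM against 5.11 and 5.52 CPM on day 2, a pooled log2 fold change of 1.46 (SE 0.10, adjusted p = 0.000283). *Wdfy1*, an endosomal protein gene, stood at 28.3 and 23.1 CPM in KO against 9.71 and 8.07 CPM in WT on day 1, and at 47.2 and 41.5 CPM against 13.9 and 17.0 CPM on day 2 (1.52, SE 0.11, adjusted p = 0.000392). *Tnfrsf1a*, a receptor of tumour necrosis factor, ran from 21.4 to 32.9 CPM in KO and from 5.52 to 12.4 CPM in WT (1.51, SE 0.16). *Camk2n1*, which encodes a protein that inhibits CaM kinase II, ran from 5.06 to 6.33 CPM in KO and from 1.55 to 2.09 CPM in WT (1.66, SE 0.18). *Ttc9* ran from 6.64 to 11.8 CPM in KO and from 2.61 to 4.69 CPM in WT (1.51, SE 0.16). The calls of these 7 genes held without each of the 8 libraries.

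The other members of the 12 largest rises rested on fewer libraries. *Prox1* stood at 4.81 and 4.01 CPM in KO1 and KO15 against 2.02 and 0.45 CPM in WT7 and WT34 on day 1, and at 11.2 and 8.61 CPM against 2.55 and 2.94 CPM on day 2, a pooled log2 fold change of 1.84 (SE 0.32, adjusted p = 0.0220). It passed in 2 of the 8 fits that left out a library, with an adjusted p of up to 0.104. *Arl14epl* (1.77, SE 0.30) passed in 4 of these fits. *Xlr5a*, *Xlr3a* and *Xlr4a* are taken up with their family.

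By the same limits the 12 largest falls were those of *Tet1*, the gene copies *Tpm3-rs7* and *Amd2*, the neuronal genes *Elavl3*, *Ttbk1* and *Dpysl2*, the imprinted genes *Nnat* and *Usp29*, and *Car14*, *Rbm44*, *Pcnx2* and *Ifit2*. *Elavl3* encodes a neuronal RNA-binding protein that is an early mark of neuronal commitment. Its level on day 1 was 2.24 CPM in KO1 and 3.16 CPM in KO15, against 8.06 CPM in WT7 and 10.5 CPM in WT34, and on day 2 it was 14.1 and 15.2 CPM in KO and 50.9 and 45.1 CPM in WT. The level was higher on day 2 in all 4 lines, and the KO lines were the lower on each day. It was 3.32-fold lower in KO (log2 fold change -1.73, SE 0.13, adjusted p = 0.000392). *Ttbk1*, a tau kinase of neurons, showed the same order, at 1.66, 1.47, 5.15 and 6.42 CPM for KO1, KO15, WT7 and WT34 on day 1 and 10.4, 13.2, 41.6 and 35.1 CPM on day 2 (-1.77, SE 0.14, adjusted p = 0.000437). *Dpysl2*, which acts in axon growth, stood at 5.31, 5.81, 16.3 and 18.2 CPM on day 1 and at 19.5, 20.8, 51.8 and 42.5 CPM on day 2 (-1.41, SE 0.12, adjusted p = 0.000699). All 3 genes were higher on day 2 than on day 1 in every line and lower in KO on each day.

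*Nnat*, a paternally expressed imprinted gene of developing neural tissue, was 3.69-fold lower in KO (log2 fold change -1.89, SE 0.19, adjusted p = 0.00182). It stood at 11.3 and 13.9 CPM in KO1 and KO15 and at 37.3 and 37.4 CPM in WT7 and WT34 on day 1, and at 10.9, 16.8, 73.4 and 53.7 CPM on day 2. *Car14*, a carbonic anhydrase gene, ran from 1.66 to 11.1 CPM in KO and from 4.26 to 26 CPM in WT, with separate libraries on each day (-1.34, SE 0.14). *Rbm44*, an RNA-binding protein gene of germ cells, ran from 1.28 to 8.35 CPM in KO and from 4.34 to 22.1 CPM in WT (-1.60, SE 0.17). *Pcnx2* (-1.62, SE 0.19) and *Ifit2*, an interferon-induced gene (-1.95, SE 0.28), were lower at levels of at most 12.1 CPM. The calls of *Elavl3*, *Ttbk1*, *Dpysl2*, *Nnat*, *Car14*, *Rbm44*, *Pcnx2* and *Ifit2* held without each of the 8 libraries. With 1 summed library per line 18 of the 24 leading genes passed. The call was lost for *Xlr5a* (adjusted p = 0.123), *Xlr3a* (0.0862), *Xlr4a* (0.0727), *Arl14epl* (0.0554), *Amd2* (0.0907) and *Usp29* (0.157). The plot of the 24 leading genes shows the level of each in every library.

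**Figure D1:**
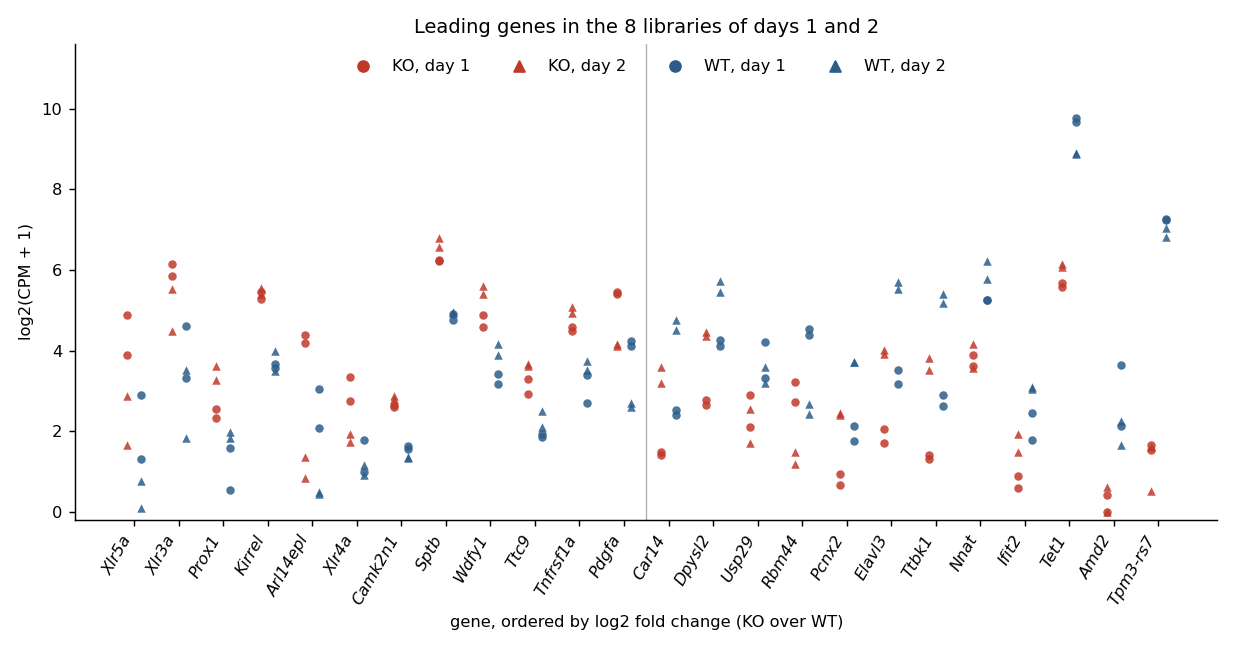
Level of the 12 genes with the largest rises and the 12 with the largest falls (at least 5 CPM on average in the higher genotype, predicted genes and pseudogenes left out) in each of the 8 libraries, as log2(CPM + 1) on the vertical axis, with KO in red, WT in blue, circles for day 1 and triangles for day 2. Within each day the KO and WT points separate for every gene, which was a condition for choosing the genes. *Tet1* and *Tpm3-rs7* show the widest gaps.

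The promoters of 4 of these genes are shown because TET1 acts at CpG-rich DNA and the genes are among those with the clearest separation, *Sptb* higher in KO and *Elavl3*, *Ttbk1* and *Nnat* lower. Each is the 300 bases of the RefSeq window on GRCm38.p6, from 250 before to 50 after the RefSeq start, written 5′ to 3′ on the strand of the gene, with every CG in capitals. CG reads the same on both strands, and neighbouring matches do not overlap. *Sptb* lies at chr12:76710498-76710797 (minus strand), *Elavl3* at chr9:22051974-22052273 (minus), *Ttbk1* at chr17:46487626-46487925 (minus) and *Nnat* at chr2:157559828-157560127 (plus).
Sptb: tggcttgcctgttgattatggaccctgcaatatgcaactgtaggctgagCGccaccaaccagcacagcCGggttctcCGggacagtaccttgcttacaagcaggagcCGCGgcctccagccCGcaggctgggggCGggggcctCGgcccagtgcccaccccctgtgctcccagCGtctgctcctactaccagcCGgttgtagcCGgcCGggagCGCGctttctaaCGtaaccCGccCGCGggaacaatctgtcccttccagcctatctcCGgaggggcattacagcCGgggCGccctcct
Elavl3: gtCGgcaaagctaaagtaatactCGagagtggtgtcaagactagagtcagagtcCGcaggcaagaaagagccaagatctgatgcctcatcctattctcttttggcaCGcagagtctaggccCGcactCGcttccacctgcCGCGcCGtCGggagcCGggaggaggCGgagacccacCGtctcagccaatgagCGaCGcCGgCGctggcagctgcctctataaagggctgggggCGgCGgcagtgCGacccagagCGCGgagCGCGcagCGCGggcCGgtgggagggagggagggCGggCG
Ttbk1: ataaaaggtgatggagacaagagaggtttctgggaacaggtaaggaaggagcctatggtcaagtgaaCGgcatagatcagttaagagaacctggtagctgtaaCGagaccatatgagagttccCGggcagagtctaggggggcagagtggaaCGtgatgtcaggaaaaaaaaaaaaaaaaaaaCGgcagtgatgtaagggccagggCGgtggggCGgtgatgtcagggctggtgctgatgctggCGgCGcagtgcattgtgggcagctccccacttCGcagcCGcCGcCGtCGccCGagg
Nnat: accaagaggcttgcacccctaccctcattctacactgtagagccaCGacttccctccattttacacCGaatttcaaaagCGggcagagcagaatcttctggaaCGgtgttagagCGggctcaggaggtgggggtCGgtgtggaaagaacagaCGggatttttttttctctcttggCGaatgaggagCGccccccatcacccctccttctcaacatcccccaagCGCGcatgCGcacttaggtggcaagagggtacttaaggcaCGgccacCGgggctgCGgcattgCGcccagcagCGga
The window of *Sptb* holds 21 CG, that of *Elavl3* 29, that of *Ttbk1* 15 and that of *Nnat* 17. Over the 11460 tested genes with such a window the median was 20, and 80.5% held at least 10. Of the 84 genes higher in KO, 47 had a window, with a median of 17 and 72.3% holding at least 10. Of the 40 lower genes, 25 had one, with a median of 13 and 64.0% holding at least 10. The medians of the passing genes were therefore not above that of the tested genes, with windows for part of the genes only.

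Imprinted genes are expressed from a single parental allele, according to DNA methylation set in the germ line. Of 52 measured members of the list, 6 passed and all 6 were lower in KO, beside 0.232% of all genes lower. They were *Nnat*, *Usp29*, *Magel2*, *Sgce*, *Mest* and *Peg10*, all known as paternally expressed. By adjusted p alone 10 were lower and 0 higher, beside 1.23% and 1.33% of all tested genes, adding *Impact*, *Zdbf2*, *Inpp5f* and *Snrpn*. Of the 52, 37 had a log2 fold change below 0, with a median of -0.11 beside -0.0020 over all tested genes, so most members differed little.

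*Mest*, an abundant enzyme gene of embryonic tissue, stood at 144 and 143 CPM in KO1 and KO15 against 269 and 239 CPM in WT7 and WT34 on day 1, and at 104 and 110 CPM against 285 and 220 CPM on day 2, a pooled log2 fold change of -1.03 (adjusted p = 0.0023). *Peg10*, a retrotransposon-derived gene needed in the placenta, stood at 201, 259, 574 and 371 CPM on day 1 and at 74.9, 98.4, 194 and 153 CPM on day 2 in the same order (-1.02, adjusted p = 0.0131). WT7 held the highest *Peg10* level on each day. *Sgce*, the neighbour of *Peg10* in the same imprinted cluster, was at most 6.90 CPM (-1.09, adjusted p = 0.0423), *Magel2* ran from 4.73 to 12.1 CPM in KO and from 6.05 to 33.1 CPM in WT (adjusted p = 0.0475), and *Usp29* ran from 2.24 to 6.43 CPM in KO and from 8.17 to 17.5 CPM in WT (-1.43, SE 0.31, adjusted p = 0.049). Among these 6 genes *Nnat* alone passed without each library, while *Mest* passed in 5 of the 8 fits, *Peg10* in 4, and *Sgce*, *Magel2* and *Usp29* in 1 each. With 1 summed library per line *Nnat*, *Mest* and *Magel2* passed, and *Peg10* (adjusted p = 0.104), *Sgce* (0.0915) and *Usp29* did not. *Zdbf2* and *Impact*, at a log2 fold change of -0.70 and -0.69, had adjusted p-values of 0.00241 and 0.00182 and were separated on each day.

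**Figure D2:**
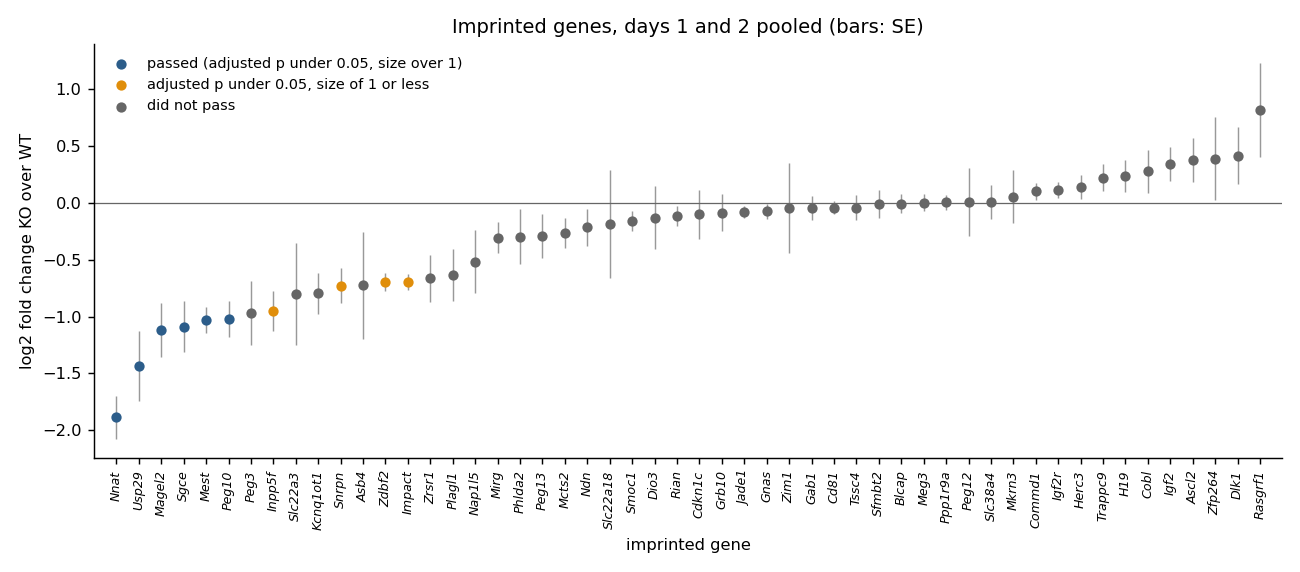
Log2 fold change of KO over WT, days 1 and 2 pooled, for the 52 imprinted genes, ordered by value, with bars for the SE; blue marks the 6 genes past both thresholds and orange the 4 past the adjusted p alone. All coloured points are below 0, and most of the others lie close to 0.

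Lower imprinted genes were also found on day 0, before differentiation, while most calls on day 5 were higher. Of 56 imprinted genes tested in the other libraries of the same lines, 6 were lower and 0 higher on day 0, where 1.31% of all genes passed in either direction. On day 3, 11 were lower and 0 higher in the first experiment (4.83% of all genes) and 6 were lower and 0 higher in the time course (2.46%). On day 4, 8 were lower and 9 higher (8.05%), and on day 5, 3 were lower and 20 higher (12.8%). *Nnat* stood at 4.76 and 6.33 CPM in KO against 16.1 and 12.9 CPM in WT on day 0, and at 53.4 and 94.8 CPM in KO against 51.9 and 55.1 CPM in WT on day 5 of the first experiment, where the genotypes overlapped.

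Among 29 genes of early neural and neuronal cells, 2 fell and 2 rose, beside 0.232% of all tested genes lower and 0.487% higher. *Elavl3* and *Tubb3*, both of young neurons, fell. *Tubb3*, which encodes a neuronal tubulin, stood at 24.7 and 25.1 CPM in KO1 and KO15 against 36.7 and 43.0 CPM in WT7 and WT34 on day 1, and at 23.4, 30.4, 71.2 and 64.2 CPM on day 2, a pooled log2 fold change of -1.01 (SE 0.15, adjusted p = 0.0101). It was higher on day 2 than on day 1 in both WT lines and stayed between 23.4 and 30.4 CPM in KO, and its call was lost without any of the 4 libraries of day 2. Both genes were already lower in KO on day 0, before differentiation. There *Tubb3* stood at 18.0 and 17.6 CPM in KO against 36.0 and 35.2 CPM in WT, and *Elavl3* at 4.97 and 6.02 CPM against 17.2 and 13.1 CPM. *Irx3* and *Otx1*, patterning factors of the neural plate, rose. *Irx3* stood at 3.65, 4.51, 1.34 and 1.49 CPM on day 1 and at 4.67, 5.98, 2.48 and 1.99 CPM on day 2 (1.38, SE 0.19, adjusted p = 0.00776), a call that held without each library and missed the threshold with 1 summed library per line (adjusted p = 0.0521). *Otx1* did not exceed 3.27 CPM (1.40, SE 0.26, adjusted p = 0.0282) and passed in 1 of the 8 fits.

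The neural plate factors *Sox1* (log2 fold change 0.80, adjusted p = 0.128) and *Pax6* (0.27, adjusted p = 0.719) were at or below 4.07 CPM and did not pass. The median of the 29 genes was 0.11, beside -0.0020 over all tested genes, with 17 above 0 and 12 below. *Dcx* (1.06, adjusted p = 0.152), *Pou3f2* (1.28, adjusted p = 0.101) and *Lhx5* (1.28, adjusted p = 0.123) were among those above 0 and did not pass. The adhesion gene *Cdh2* (N-cadherin), which neural and mesodermal cells gain, had an adjusted p of 0.00674 at a log2 fold change of -0.93, and *Cdh1* (E-cadherin) was at -0.06. *Cdh2* stood at 3.24, 2.88, 7.09 and 6.13 CPM on day 1 and at 10.6, 11, 17.5 and 19.6 CPM on day 2 for KO1, KO15, WT7 and WT34. The KO lines were the lower on each day, as for *Elavl3* and *Tubb3*.

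Of 18 listed streak genes, 10 passed the filter on low counts and 1 was called higher, beside 0.487% of all tested genes. It was *Eomes*, which encodes a T-box factor that starts the streak programme. On day 1 it stood at 9.88 CPM in KO1 and 10.8 CPM in KO15, against 7.39 CPM in WT7 and 7.17 CPM in WT34. On day 2 it stood at 20.6 and 22.3 CPM in KO and at 5.59 and 6.18 CPM in WT. The KO libraries were over the WT libraries on each day, with a narrow gap on day 1 and a wide one on day 2. Pooled, the log2 fold change was 1.19 (SE 0.25, adjusted p = 0.0458), and by day it was 0.51 on day 1, not past the threshold, and 1.86 on day 2 (adjusted p = 0.0027). The difference between the days was 1.36 (adjusted p = 0.512). The pooled call was fragile, since it was kept without WT7 on day 1 and lost without any other single library. With 1 summed library per line its adjusted p was 0.0098.

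*T*, a streak and mesoderm factor, stood at 0.42 and 0.40 CPM in KO and 0.52 and 0.37 CPM in WT on day 1, and at 2.61 and 1.21 CPM in KO and 0.35 and 0.44 CPM in WT on day 2. The KO libraries of day 2 were the higher ones, at low levels (log2 fold change 1.22, SE 0.56, adjusted p = 0.327). *Mixl1*, another streak factor, was between 0.34 and 1.56 CPM in all libraries (0.32, adjusted p = 0.761). Of the 10 tested streak genes 7 were above 0, with a median of 0.57. For scale, on day 3 *T* ran from 191 to 214 CPM in KO libraries of the same lines and from 1.74 to 4.22 CPM in WT, and *Eomes* from 154 to 386 CPM against 9.05 to 18.4 CPM. *Eomes* was also above WT on day 0, at 9.37 and 10.4 CPM in KO against 5.35 and 5.14 CPM. *Fst*, which encodes an antagonist of activin, had a similar course, at 9.71, 8.75, 6.57 and 7.62 CPM on day 1 and 26, 24.7, 10.5 and 9.64 CPM on day 2 (0.88, adjusted p = 0.0475).

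The promoter window of *Eomes* (chr9:118477939-118478238, plus strand, GRCm38.p6) is shown in the same way as those above, since *Eomes* was the 1 streak gene called.
Eomes: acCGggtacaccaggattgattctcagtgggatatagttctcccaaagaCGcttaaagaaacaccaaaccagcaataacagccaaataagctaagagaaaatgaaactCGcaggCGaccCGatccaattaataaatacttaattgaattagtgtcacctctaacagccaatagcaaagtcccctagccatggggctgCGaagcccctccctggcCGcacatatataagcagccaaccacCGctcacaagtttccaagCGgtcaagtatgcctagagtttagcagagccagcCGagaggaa
It holds 10 CG, and 80.5% of the 11460 windows hold at least as many.

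**Figure D3:**
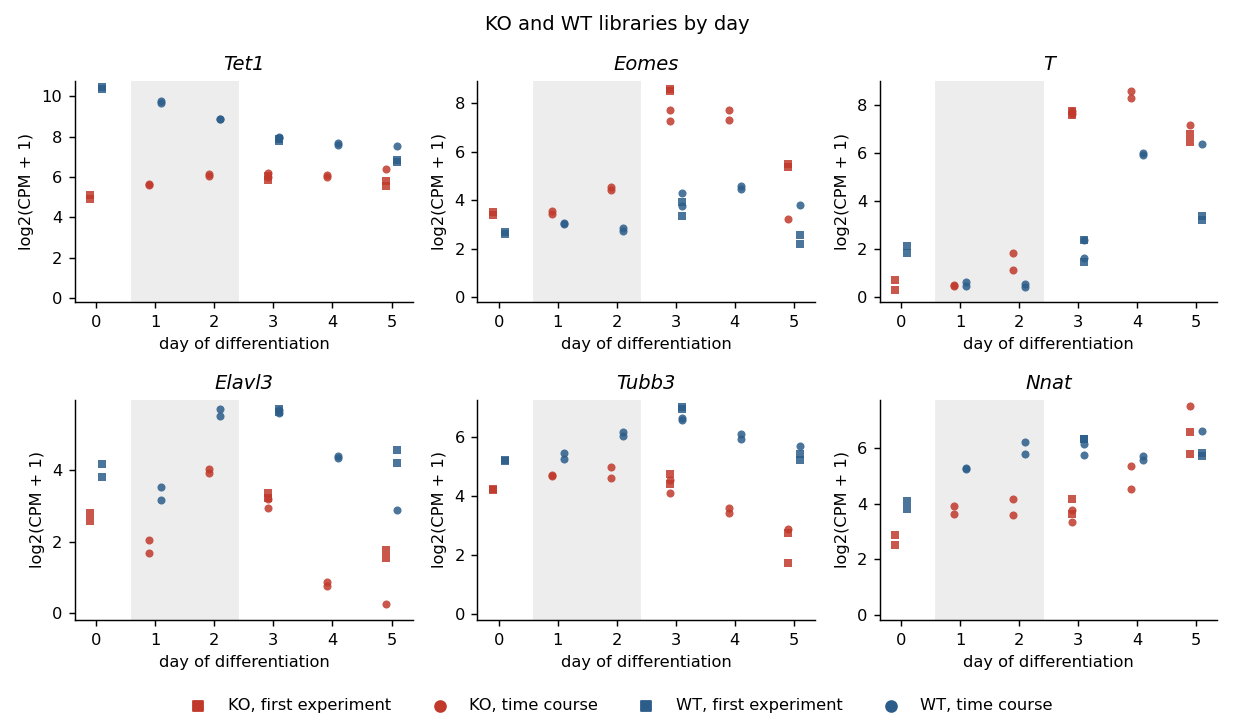
Level of *Tet1*, *Eomes*, *T*, *Elavl3*, *Tubb3* and *Nnat* in every KO (red) and WT (blue) library by day of differentiation, as log2(CPM + 1). Squares mark the first experiment and circles the time course, and the shaded band marks days 1 and 2. *Elavl3*, *Tubb3* and *Nnat* are apart inside the band, while *T* reaches 191 to 214 CPM in KO on day 3 only after it.

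Wnt, Nodal, FGF and BMP signals pattern the streak in the embryo. Of 8 Wnt ligands, 22 Wnt receptors and antagonists, 14 TCF/LEF factors and Wnt targets, 18 genes of the Nodal pathway and 22 of the FGF and ERK pathway, 0 passed. Of the 8 ligands 6 were above 0, with a median of 0.52. *Wnt3*, the ligand that starts the streak, was at most 0.299 CPM on day 1. On day 2 it stood at 3.09 and 1.64 CPM in KO1 and KO15 and at 0.897 and 1.10 CPM in WT7 and WT34 (log2 fold change 0.82 pooled, adjusted p = 0.458). *Tcf7l1*, a repressor of Wnt targets, stood between 130 and 188 CPM in all 8 libraries (-0.02, SE 0.08, adjusted p = 0.929), and *Axin2*, a Wnt target, was at -0.17 (adjusted p = 0.665). *Nodal* was at 28.3 CPM in KO1 on day 2, and between 8.24 and 18.5 CPM in the other 7 libraries (0.66, adjusted p = 0.269). Of 20 BMP pathway genes 1 passed, beside 0.487% of all tested genes higher. It was *Smad6*, an inhibitory Smad (1.22, adjusted p = 0.043), at no more than 3.46 CPM. Of 14 Notch pathway genes 0 passed, and 2 were lower by adjusted p alone, beside 1.23% of all tested genes. These were the receptor *Notch1* at -0.44 and the ligand *Jag2* at -0.73. Of 11 mesoderm and 11 endoderm genes, 0 passed. Of the mesoderm genes 9 were above 0, with a median of 0.31, and of the endoderm genes 9 were below 0, with a median of -0.08.

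The pluripotency genes differed little in either direction. Of 7 core and 15 naive genes, 0 passed, although 14 of the 15 naive genes were above 0, with a median of 0.18. By adjusted p alone 2 naive genes were higher in KO, beside 1.33% of all tested genes. These were *Dppa5a* (0.74, adjusted p = 0.020) and *Nr0b1* (0.98, adjusted p = 0.0362). Of the 7 core genes 1 was lower by adjusted p alone, *Lin28b* (-0.33, adjusted p = 0.0475), beside 1.23% of all tested genes. *Nr0b1*, a nuclear receptor gene of naive ESCs, stood at 41.8 and 36.8 CPM in KO against 18.7 and 19.7 CPM in WT on day 1, and at 3.64 and 3.77 CPM against 2.83 and 1.10 CPM on day 2. *Nanog* (0.58, adjusted p = 0.351), *Esrrb* (0.61, adjusted p = 0.093), *Pou5f1* (0.31, adjusted p = 0.272) and *Sox2* (-0.19, adjusted p = 0.483) did not pass. Of 18 formative and primed genes 1 fell, *Car14*, beside 0.232% of all tested genes lower. A further 1, the growth factor gene *Fgf5*, had an adjusted p of 0.0182 at a log2 fold change of 0.46. *Fgf5* stood at 31.3, 30.7, 21.8 and 23.9 CPM on day 1 and 111, 101, 82.8 and 69.3 CPM on day 2, higher on day 2 in both genotypes. *Otx2*, the formative factor, was at -0.07.

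Genes of the X-linked Xlr family and of the germ line were mostly higher in KO. Of 9 Xlr genes, lymphocyte and germ cell genes in clustered near-identical copies, 3 passed and all 3 rose, beside 0.487% of all genes. *Xlr3a* stood at 70, 56.4, 23.3 and 9.04 CPM for KO1, KO15, WT7 and WT34 on day 1 and at 45.0, 21.6, 10.4 and 2.58 CPM on day 2, a pooled log2 fold change of 2.14 (SE 0.42, adjusted p = 0.0361). *Xlr5a* (2.71, SE 0.58, adjusted p = 0.0488) and *Xlr4a* (1.73, SE 0.34, adjusted p = 0.0349) had the same order of lines on each day, KO1 highest and WT34 lowest. All 9 members were above 0. The lines of 1 genotype differed widely, and *Xlr3a*, *Xlr5a* and *Xlr4a* passed in 1, 1 and 2 of the 8 fits. Their reads can be shared among copies, so the value of a single member is uncertain.

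Of 25 germ line and piRNA genes 1 rose, beside 0.487% of all tested genes. It was *Hormad2*, a gene of meiotic chromosome axes (1.24, SE 0.26, adjusted p = 0.0459, in 2 of the 8 fits). By adjusted p alone 7 were higher and 0 lower, beside 1.33% and 1.23% of all genes, and 23 of 25 were above 0, with a median of 0.32. *Dazl*, an RNA-binding protein gene of germ cells, stood at 11.3, 9.93, 5.97 and 5.6 CPM on day 1 and at 5.22, 5.19, 3.59 and 2.50 CPM on day 2 (0.82, adjusted p = 0.0248). *Tex19.1*, which acts on retrotransposons, was at 0.86 (adjusted p = 0.037). The KO libraries of both genes were higher on each day.

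The other genes of DNA methylation differed by less than the fold threshold. Of 12 TET and DNMT genes *Tet1*, the knocked-out gene, was the 1 that passed, beside 0.232% of all tested genes lower. By adjusted p alone 4 were higher, beside 1.33% of all tested genes, and *Tet1* was the 1 lower. *Tet2*, the other TET gene of ESCs, stood at 33.9 and 35.7 CPM in KO against 26.5 and 17.5 CPM in WT on day 1, and at 12.7 and 10.0 CPM against 6.83 and 7.51 CPM on day 2, a pooled log2 fold change of 0.67 (adjusted p = 0.0471). *Dnmt3l*, a cofactor of the methyltransferases, was at 0.32 (adjusted p = 0.025), *Tdg* at 0.28 (adjusted p = 0.043) and *Zfp57* at 0.45 (adjusted p = 0.048). Of 23 genes of cholesterol synthesis 0 passed. Of these, 21 were below 0, beside 8693 of all 17252 tested genes, with a median of -0.18, and 4 were lower by adjusted p alone, beside 1.23% of all genes. *Hmgcs1*, which makes an early step of that pathway, led these at -0.56 (adjusted p = 0.00591), with 461 to 477 CPM in KO and 616 to 770 CPM in WT. All 13 mitochondrially encoded genes were below 0 and 0 passed, with a median of -0.43 in a comparison that held WT7 of day 1.

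Several of the widest differences were in copies of other genes. *Tpm3-rs7* (chromosome 14, 113314608 to 113316754), a copy of the tropomyosin gene *Tpm3*, stood between 0.425 and 2.14 CPM in KO and between 112 and 152 CPM in WT (log2 fold change -6.40, SE 0.25, adjusted p = 8.0e-06), while *Tpm3* itself was at 0.25 (adjusted p = 0.320). *Amd2*, a copy of *Amd1*, was at -4.40 (SE 0.84, adjusted p = 0.0321) and passed in 2 of the 8 fits, while *Amd1* was at 0.00 (adjusted p = 0.984). *Tdg-ps*, named after its values were seen, is a pseudogene of the DNA glycosylase gene *Tdg* and stood between 0.282 and 0.830 CPM in KO and between 26.5 and 27.9 CPM in WT. *Tdg* stood between 179 and 215 CPM in KO and between 146 and 169 CPM in WT, and the sum of both was 179 to 215 CPM in KO and 173 to 196 CPM in WT. The values of such copies are uncertain because the counting tool divides reads among near-identical sequences. *Obox4-ps12* and *Gm7416*, also named after their values were seen, were at 0 in every library of a genotype. *Obox4-ps12* had 4 and 26 counts in KO1 and KO15 on day 1 and 19 and 21 on day 2, and none in WT. *Gm7416* had 8 and 10 counts in WT7 and WT34 on day 1 and 8 and 13 on day 2, and none in KO.

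The position of the passing genes was set beside that of *Tet1*. Of 110 tested genes within 10 Mb of *Tet1*, 4 passed (3.64%), beside 0.719% of all tested genes and 14 of 837 on the whole of chromosome 10 (1.67%). The share ran from 0.192% on chromosome 4 to 1.37% on chromosome 1 over the other autosomes, and was 0.974% on X and 11.8% on Y (2 of 17, both higher in KO). Of 4 listed Y-linked genes 0 passed, and all 4 were above 0, with a median of 0.65. By adjusted p alone 2 of them were higher, beside 1.33% of all tested genes. Their summed level was 193 to 241 CPM in KO and 99.3 to 172 CPM in WT. The cause of this difference was not tested. The 4 near *Tet1* were *Tet1* itself and, named after their values were seen, *Gm48353*, the pseudogene *Gm6494* and *Sgpl1*. *Gm48353* lies within *Tet1* on the same strand, so the share of 3.64% counts the knocked-out gene and a gene inside it. *Sgpl1*, the gene of sphingosine-phosphate lyase, stood at 128 and 124 CPM in KO against 52.9 and 63.9 CPM in WT on day 1, and at 164 and 179 CPM against 83.7 and 80.9 CPM on day 2, a pooled log2 fold change of 1.09 (SE 0.07, adjusted p = 0.00023).

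On the single days fewer genes passed, and most differences were shared. On day 1, 40 genes passed (0.232% of those tested, 26 higher) and on day 2, 42 passed (0.243%, 29 higher). Of these 26 passed on both days, 65.0% of the day 1 genes and 61.9% of the day 2 genes. Among the genes called on 1 day, 39 of 40 and 41 of 42 had the same sign on the other day. The day 1 count rested on single libraries, with 6 genes without KO1, 8 without KO15, 345 without WT34 and 54 without WT7. The day 2 count was 12 without KO1, 19 without KO15, 9 without WT7 and 13 without WT34.

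The difference of the genotype effect between the days passed for 2 genes (0.0116% of those tested). *Tet1* was one, with a smaller deficit on day 2 by 1.32 (SE 0.12, adjusted p = 0.0359). With the cell line entered as a block, 0 genes passed and *Tet1* had an adjusted p of 0.446. The other gene was *Gm45837*, which was at 0 in both WT libraries of day 1 and at 5.64 and 5.13 CPM in the KO libraries, and at 10.7 and 7.95 CPM in WT and 6.37 and 6.83 CPM in KO on day 2. On other days it was also at 0 in libraries of both genotypes. On day 3 it stood at 10.8 CPM in WT7 and 0 in WT34 in the first experiment, and at 7.29 CPM in KO1 and 0 in KO15 in the time course. No gene passed (0) without KO1 or KO15 of day 1 or without any single library of day 2, 2 passed without WT7 of day 1, and 49 passed without WT34 of day 1. At an unadjusted p under 0.05 the difference held for 737 genes, and DESeq2 called 11. *Tubb3* and *Eomes*, with wider gaps on day 2, were not past that threshold.

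**Figure D4:**
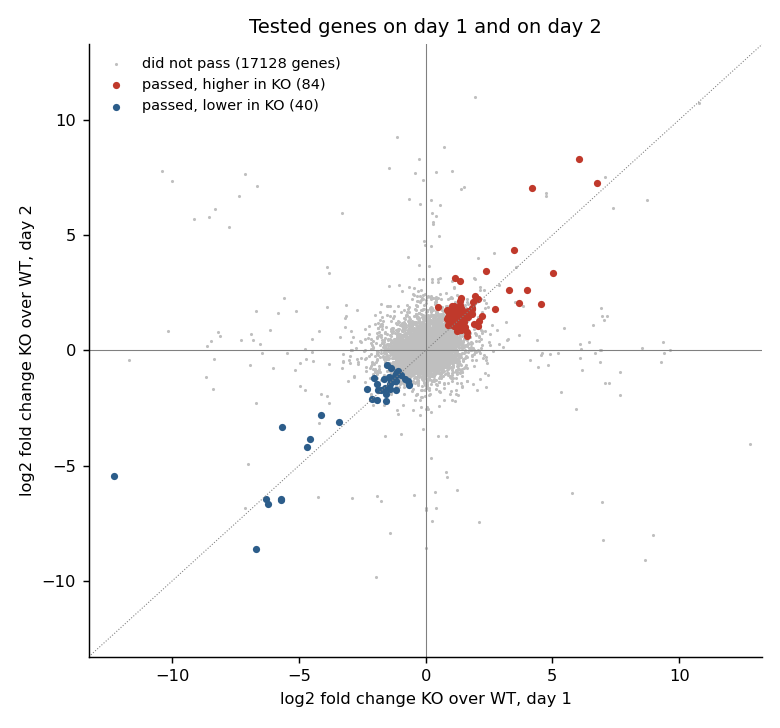
Log2 fold change of KO over WT on day 1 (horizontal axis) and on day 2 (vertical axis) for the 17252 tested genes, with the 84 genes higher in KO in red, the 40 lower in blue and the others in grey. All coloured points lie in the quadrants where both days have the same sign; the libraries of each day come from the same lines.

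The genes of days 1 and 2 were set beside the other days of the same lines, whose libraries are not among the 8 compared here. The time course days were fitted together with these 8 libraries, so the estimate of the spread was shared with this comparison. On day 0, 122 of the 124 genes were tested, 117 had the same direction, and 52 passed in it, beside 1.31% of all genes in that comparison. In the first experiment 69 passed in the same direction on day 3 (4.83% of all genes passed) and 46 on day 5 (12.8%). In the time course 62 did on day 3 (2.46%) and 42 on day 4 (8.05%). Fitted with the KO and WT libraries of that day alone, 68 did on day 3 and 40 on day 4 of the time course. None passed in the opposite direction on days 0 and 3, while 10 did on day 5 and 7 on day 4. Of the 40 lower genes, 20 passed on day 0 and 33 and 32 passed on day 3. Of the higher genes, 32 of 82 passed on day 0, 36 of 82 on day 3 of the first experiment and 30 of 84 on day 3 of the time course. *Elavl3*, *Ttbk1*, *Mest* and *Tet1* on the lower side and *Wdfy1* and *Inpp5d*, a lipid phosphatase gene of blood cells named after its values were seen, on the higher side were among 17 genes that passed in the same direction in all 5 other comparisons, and 11 of the 17 were predicted genes, pseudogenes or copies.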

How the data were processed

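Polyadenylated RNA of the 8 libraries was sequenced from libraries made with the KAPA stranded mRNA-seq kit. The authors trimmed reads with Trim Galore 0.6.4, estimated transcript levels with Salmon 0.14.1 on GENCODE M23 (mm10) and summed them per gene with tximport. The deposited tables hold expected counts, of which 74.5% of the values in the 8 libraries were whole, and TPM, which the authors computed from the same estimates. Salmon divides reads that fit several copies of a gene, and this makes values of near-identical genes uncertain.

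The expected counts were rounded to whole numbers. Genes with a low count were removed with filterByExpr (minimum count 10, minimum total 15), and 17252 of 54281 genes were tested. Days 1 and 2 were fitted together with genotype and day as terms (5 residual degrees of freedom, biological coefficient of variation 16.5%) by the quasi-likelihood test of edgeR 4.0.16 in R 4.3.3. Day 1, day 2 and their difference came from a fit of the 4 genotype and day groups (4 residual degrees of freedom). P-values were adjusted by Benjamini-Hochberg over all tested genes, and a gene passed at an adjusted p under 0.05 and an absolute log2 fold change over 1. CPM values used TMM-scaled library sizes unless stated as counts. Other days were fitted in their own experiment with all its KO and WT libraries.

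The alternatives were a log2 threshold of 1.5, RLE size factors, no filter, no day term, 1 summed library per line, the line as a random block (limma-voom, limma 3.58.1), all 18 libraries of the time course, limma on log2(TPM + 1) with a minimum of 1 TPM, DESeq2 1.42.0, and each library and each line left out in turn. Labels tie the day 1 and day 2 libraries to a line and do not pair KO with WT lines. The deviations of a line from its group on day 1 and day 2 correlated at -0.0924 for KO and 0.0163 for WT over 17252 genes, and the line correlation estimated by limma was -0.0918.

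Named genes were a fixed set of marker genes, the 12 highest and 12 lowest fold changes among passing genes with separate libraries and at least 5 CPM on average in the higher genotype (predicted genes and pseudogenes left out), the passing members and up to 3 others of each list described, and up to 6 genes of the day difference. The comparison, gene lists and tests were chosen with earlier results of these data known. Positions came from GENCODE M21 (mm10), which held 99.7% of the gene identifiers, and promoter windows from RefSeq (GRCm38.p6). The scripts were tested on simulated data.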

Additional observations from a re-analysis of the deposited data

Results flagged for a closer look

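In the 4 libraries of a genotype, a library was singled out where its gap to the nearest other library exceeded Dixon's 95% critical share of the group's range. Chance alone would single out about 1 in 20 groups of 4 like libraries. Each group here mixes 2 days and 2 lines, so that rate is only a guide. KO15 on day 2 was singled out among the KO libraries in the summed primitive and visceral endoderm markers (1647 CPM, others 611 to 760 CPM). It was also singled out for *Dab2*, an endoderm adaptor gene (75.6 CPM, others 34.5 to 39.5 CPM), for *Spink1* (6.97 CPM, others 1.33 to 1.52 CPM), for the POU factor gene *Pou3f1* (321 CPM, others 262 to 269 CPM) and on the fourth principal component (42.0, others -20.8 to -11.3). KO1 on day 2 was singled out for the gene copy *Tpm3-rs7* (0.425 CPM, others 1.91 to 2.14 CPM).

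Among the WT libraries, WT7 on day 1 was singled out for the mitochondrial genes *mt-Co2* (2121 CPM, others 233 to 494 CPM) and *mt-Atp6* (6150 CPM, others 951 to 1313 CPM). It was also singled out for *Xlr5b* (3.58 CPM, others 0 to 0.276 CPM), *Id1* (1.72 CPM, others 1.27 to 1.32 CPM), *Amn* (1.04 CPM, others 4.21 to 4.78 CPM) and *Zscan4e* (1.20 CPM, listed at 0 in the others). WT34 on day 1 was singled out for *Hormad2* (2.76 CPM, others 1.59 to 1.69 CPM), and WT7 on day 2 for *Klk8* (4.90 CPM, others 3.66 to 3.75 CPM).

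The genotype effect differed between day 1 and day 2 for *Tet1* by 1.32 on the log2 scale and for *Gm45837* by -9.78 (a fitted value that depends on the prior count, since both WT libraries of day 1 were at 0), the 2 genes past the test of that difference. Neither passed with the cell line entered as a block (adjusted p = 0.446 and 0.280).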

How the results depend on the processing

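The 124 genes became 121 with RLE size factors, 149 with DESeq2 (110 shared, 12 of the 124 without an adjusted p there) and 159 with the line as a random block (118 shared). The count became 59 at a log2 threshold of 1.5, 316 without the filter on low counts, 15 without the day term, 79 with 1 summed library per line, 208 with all 18 time course libraries and 18 with limma on log2(TPM + 1), and ran from 20 to 161 with a library or a line left out (20 without KO15, 37 without KO1, 56 without WT34 and 90 without WT7). For day 1 alone, 40 genes became 20 at the threshold of 1.5, 421 without the filter, 94 with DESeq2, 5 with the 4 libraries of that day only, and 6 to 345 with a library left out. For day 2 alone, 42 became 24, 323, 86 and 66 under the same settings, and 9 to 19 with a library left out. The 2 genes of the day difference became 207 without the filter, 11 with DESeq2 and 0 to 49 with a library left out, and 0 when the cell line entered as a replicate block (585 genes at an unadjusted p under 0.05), where *Tet1* had an adjusted p of 0.446. The cause of these shifts was not tested. For the named genes, 2822 values under the alternatives were counted as unchanged, 283 as no longer passing, 49 as newly passing and 176 as moved. A gene near 0, such as *Pou3f1* (pooled log2 fold change 0.03), can change sign between settings, and such changes were not counted apart. With 2 lines per genotype and at most 18.4 M counts (M, 1e6) per library, many calls, such as those of *Otx1*, *Sgce* and *Usp29*, rested on single libraries. No paired test of genotype was possible because the labels do not pair KO with WT lines.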

Other observations

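Genes that passed and that no list held were chosen here after their values were seen. Among those that were higher in KO, *Adam23*, a neural cell surface gene, ran from 89.9 to 125 CPM in KO and from 42.4 to 49.6 CPM in WT (log2 fold change 1.32, SE 0.09, adjusted p = 0.00023). *Gli2*, a transcription factor of the hedgehog pathway, ran from 14.6 to 19 CPM in KO and from 5.00 to 9.26 CPM in WT (1.21, SE 0.13, adjusted p = 0.00246). *Bin1*, a membrane-curving adaptor gene (1.25, SE 0.10), *Hrk*, a gene that promotes apoptosis (1.31, SE 0.13), and *Sirpa*, a membrane receptor gene (1.21, SE 0.10), were higher with separate libraries on each day. These 5 calls held without each of the 8 libraries. Among the genes that were lower, *Gabra3*, a subunit of the GABA receptor, ran from 1.25 to 3.13 CPM in KO and from 3.14 to 7.25 CPM in WT (-1.29, SE 0.20) and passed in 5 of the 8 fits that left out a library. *Apc2* (-1.26, SE 0.27) and *Gprin1* (-1.15, SE 0.23), both expressed in neurons, passed in 1 fit each.

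Lists not described above held few passing genes. Of 27 genes of glycolysis and the response to hypoxia, of 17 p53 targets and of 14 genes of the cadherin switch, 0 passed. Of 8 trophoblast markers and 4 markers of 2-cell-like cells, 0 passed. Of 19 Polycomb genes 1 rose and 0 fell. Among the embryo atlas markers used by the study, 0 rose and 1 fell of 73 epiblast genes, 1 rose and 1 fell of 35 streak genes, 1 rose and 2 fell of 48 ectoderm genes, 2 rose and 1 fell of 53 non-neural ectoderm genes, 2 rose and 2 fell of 81 genes of neuromesodermal progenitors, 1 rose and 0 fell of 79 primordial germ cell genes, 1 rose and 2 fell of 68 mesoderm genes, 3 rose and 2 fell of 115 endoderm genes, 4 rose and 1 fell of 473 visceral endoderm genes and 3 rose and 1 fell of 270 extraembryonic ectoderm genes. Over all tested genes 0.487% rose and 0.232% fell. The medians of these 10 lists lay between -0.16 and 0.10 on the log2 scale, beside -0.0020 over all tested genes.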
